A study of Danio rerio with 4 samples.

Results

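The libraries described here are the 3 made from testes of phthalate-exposed zebrafish, set together against the 1 control library, which is all 4 of the 4 libraries of the series. The exposed fish received dibutyl phthalate (DBP), diisobutyl phthalate (DiBP) or both (DBP+DiBP), for 30 days per the series' design text, and the control fish neither. All 4 groups were wild-type fish of the AB strain, 5 months old; the sample labels give the sex as male, whereas the design text speaks of female fish, and the tissue is testis in both. No dose, vehicle or number of fish per library is stated. DBP and DiBP are isomeric plasticizers whose ester chains are linear in the first and branched in the second. Expression was read as FPKM (a fragment count adjusted for gene length and for sequencing depth) for 35066 Ensembl genes, and the 9521 with a mean of at least 5 FPKM over the 4 libraries were compared. The value for each gene is the mean log2(FPKM + 1) of the 3 exposed libraries minus that of control, with the range of the exposed libraries (highest minus lowest, on the same scale) as its spread.

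Phthalate diesters are hydrolysed in the body to monoesters, which in rodents are known as testicular toxicants that lower androgen synthesis in Leydig cells and disturb the contact of Sertoli cells with germ cells. In the zebrafish testis, Leydig cells make 11-ketotestosterone and the hormone Insl3, Sertoli cells make Amh and Gsdf and line the cysts in which spermatogonia develop into spermatocytes and flagellated spermatids. Immediate early genes encode transcription factors and phosphatases that cells transcribe within a short time of a stimulus.

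Each exposure and the control were 1 library, so no value here has a replicate check, and a difference shared by all exposed libraries cannot be told apart from a property of the single control library. The spacing of low values put sequencing depth at 1.051 times control in DBP, 1.103 times in DiBP and 1.085 times in DBP+DiBP, and read numbers are not given. The 17 rows found for defining testis markers all reached at least 4.03 FPKM in every library. The DBP+DiBP library stood apart through genes of other tissues: the 30 matched markers of absorptive gut summed to 7925 FPKM there, 97.3 in DBP and 36.2 in DiBP, against 95.5 in control. In whole tissue, fewer cells of a type and less RNA per cell cannot be told apart.

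The exposed libraries were compared with control to ask what the 3 exposures had in common. A gene is called here when its difference was at least 1 (2-fold) and larger than the range of the exposed libraries, which places control outside that range. By this rule 115 genes were higher in the exposed libraries (1.21% of those compared) and 95 were lower (0.998%). Of these, 25 and 19 hold values identical to those of another row. With identical rows merged, 102 were called higher and 83 lower. Across all genes the median size of the difference was 0.26, while the median range of the exposed libraries was 0.66, so for most genes the exposures differed from each other by more than their mean differed from control. The genes called higher were mostly weak in control, with a median of 3.62 FPKM there, and 74 of the 115 had under 5 FPKM in control. Those called lower had a median of 33.7 FPKM in control. The threshold on the mean counts control, so with the 2-fold limit it favours this contrast by itself. Some genes called lower, among them PMP22, ggcta and ADAMTS1, were under 5 FPKM in every exposed library and passed through control alone. The median difference of the called genes was 1.34 for the higher and -1.29 for the lower. With library totals made equal, 136 genes were called higher and 72 lower, so that 65.4% of the calls were higher, beside 54.8% as deposited. Without DBP+DiBP the counts were 275 and 186, without DiBP 167 and 138, and without DBP 145 and 144. Leaving out a library can only keep or shrink the range, so the rule is looser there. Control also lies outside the remaining libraries at least as often as outside all 3. Such counts, here and by list below, are therefore not directly comparable with those for all 3 exposed libraries.

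No gene passed a limma fit of the 3 exposed libraries against control at an adjusted p of 0.05 (0 of 9521, 0%; smallest adjusted p 0.9999). At an unadjusted p of 0.05 the fit held 106 genes as higher and 97 as lower, and 159 of the 210 called genes were among these. The rule and the fit use the same 4 values of each gene, so this overlap is largely built in and adds no evidence. The fit takes 3 unlike exposures for replicates and assumes that the lone control varies as they do. An exact permutation of 3 libraries against 1 cannot give a p under 0.25. With 1 exposed library left out, the fit keeps 1 residual degree of freedom, beside 2 with all 3, so its test results are not given. The gene endou2 was above control by 5.19 in DiBP and 3.67 in DBP+DiBP, the libraries that remain without DBP.

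The called genes did not stand equally far from control in the 3 libraries. Among those called higher, DBP+DiBP was the library nearest to control for 73 of 115, with a median difference of 1.15 there, against 1.54 in DBP and 1.48 in DiBP. Over all genes compared, the medians were -0.20 in DBP+DiBP, 0.04 in DBP and 0.05 in DiBP, so DBP+DiBP was lowest there too. Among those called lower, DBP was the farthest from control for 51 of 95, with medians of -1.48 with DBP, -1.28 with DiBP and -1.35 with both. Each exposed library was past 2-fold on its own for 55 of the 115 and 47 of the 95. A further 257 genes were at least 1 higher on average but varied among the exposed libraries by more than that, and DBP+DiBP held the top value for 191 of these. Of another 72 genes that were at least 1 lower but too variable, DBP held the lowest value for 42. The genes on either side of the expression threshold were fbxo44.5, kept with a mean of 5.001 FPKM, and lad1, left out at 4.997 FPKM.

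**Figure D1:**
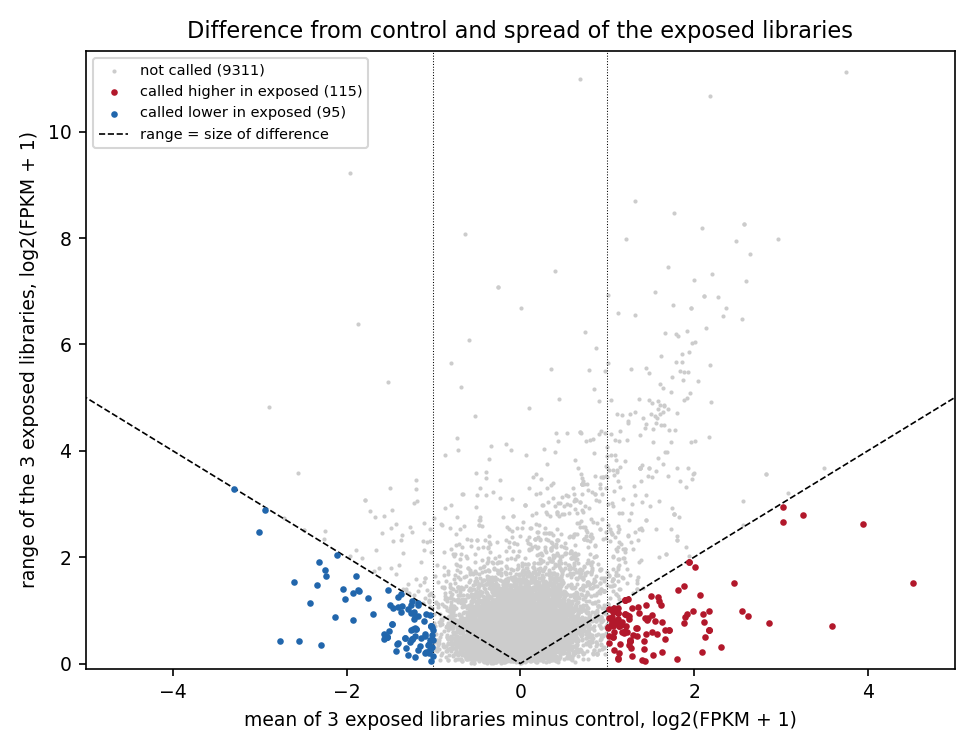
Each point is 1 of 9521 genes. The horizontal axis is the mean of the 3 exposed libraries minus control and the vertical axis the range of the 3 exposed libraries, both in log2(FPKM + 1). Called genes (115 higher in red, 95 lower in blue) lie under the dashed lines and beyond the dotted lines at a difference of 1, and the tall grey cloud on the right holds genes with a high mean and a wide range.

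Among genes with a settled symbol and values of their own, the highest differences belonged to genes that control barely expressed. The endoribonuclease gene endou2 had 36.5 FPKM with DBP, 51.8 with DiBP and 17.4 with both, against 0.448 in control (difference 4.52, range 1.52). The gene msnb, for a moesin that links actin to the membrane, had 51.3, 41.1 and 7.54 FPKM in the same order, against 0.732 in control (3.94, range 2.61). Both were far above control in every exposed library and lowest among them in DBP+DiBP. The MHC class II gene mhc2dab was ordered like msnb, with 18.2, 15.4 and 1.78 FPKM in DBP, DiBP and DBP+DiBP, and was listed at 0 in control. The organic anion transporter gene slc22a13a ran otherwise, at 8.12, 2.56 and 21.6 FPKM against 0.106 in control (3.03, range 2.66), with its top value in DBP+DiBP.

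Further down the same ranking the exposed libraries lay closer together, except in pnrc1 (range 1.52, as in endou2). The kinase gene taok2a had 11.7, 9.01 and 6.49 FPKM in DBP, DiBP and DBP+DiBP, against 0.358 in control (2.86, range 0.76). OGA, which encodes the enzyme that removes O-GlcNAc from proteins, had 21.7, 11.2 and 17.6 FPKM against 1.81 in control (2.62, range 0.90). The rapunzel family gene rpz5 had 20.5, 17.1 and 34.9 FPKM against 3.11 in control (2.55, range 0.99). For each of these 3 the lowest exposed library stood above control by more than the exposed libraries differed. The last of the 10 were pnrc1, a nuclear receptor coactivator gene (40.1, 61.9 and 20.99 FPKM against 5.996 in control), FAM219A (41.9, 20.7 and 20.6 against 5.05; a second gene of this symbol was not called) and tmem200b (13.7, 9.43 and 10.5 against 1.75), with differences of 2.46, 2.17 and 2.13. With an offset of 5 in place of 1, mhc2dab and slc22a13a were no longer called.

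The lowest differences belonged to genes that control expressed at 18.4 to 264 FPKM, among them the AP-1 genes FOSB and FOSL1 and the phosphatase gene DUSP5 given further on. The chemokine gene cxcl18b, whose product draws neutrophils in zebrafish, had 7.86 FPKM with DBP, 85.1 with DiBP and 24.8 with both, against 264 in control (difference -3.29, range 3.28). The prostaglandin synthase gene PTGS2 had 0.694, 11.5 and 3.29 FPKM in the same order, against 33.3 in control (-2.94, range 2.88). Both were lowest in DBP and nearest to control in DiBP, and their spread nearly equalled their difference. Accordingly cxcl18b was no longer called without DBP+DiBP, with an offset of 0.1 or under either other scaling, and PTGS2 not with that offset or under either scaling. FAM167B, at 4.93, 8.58 and 1.33 FPKM against 20.9 in control (-2.11, range 2.04), lost its call with that offset and with equal totals.

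In PMP22 the exposed libraries were far below control and close together. This gene, which encodes a membrane protein of myelin that also marks growth-arrested cells, had 2.74 FPKM with DBP, 3.10 with DiBP and 4.002 with both, against 27.96 in control (-2.77, range 0.42). Its difference was several times the range of the exposed libraries. PMP22 was also picked for this ratio, so a wide margin follows from that choice. The cytokine receptor-like gene crlf1a had 4.22, 10.2 and 4.11 FPKM against 34.8 in control (-2.42, range 1.13). RND1, for a small GTPase, had 1.37, 5.61 and 2.61 FPKM against 18.4 in control (-2.34, range 1.48).

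**Figure D2:**
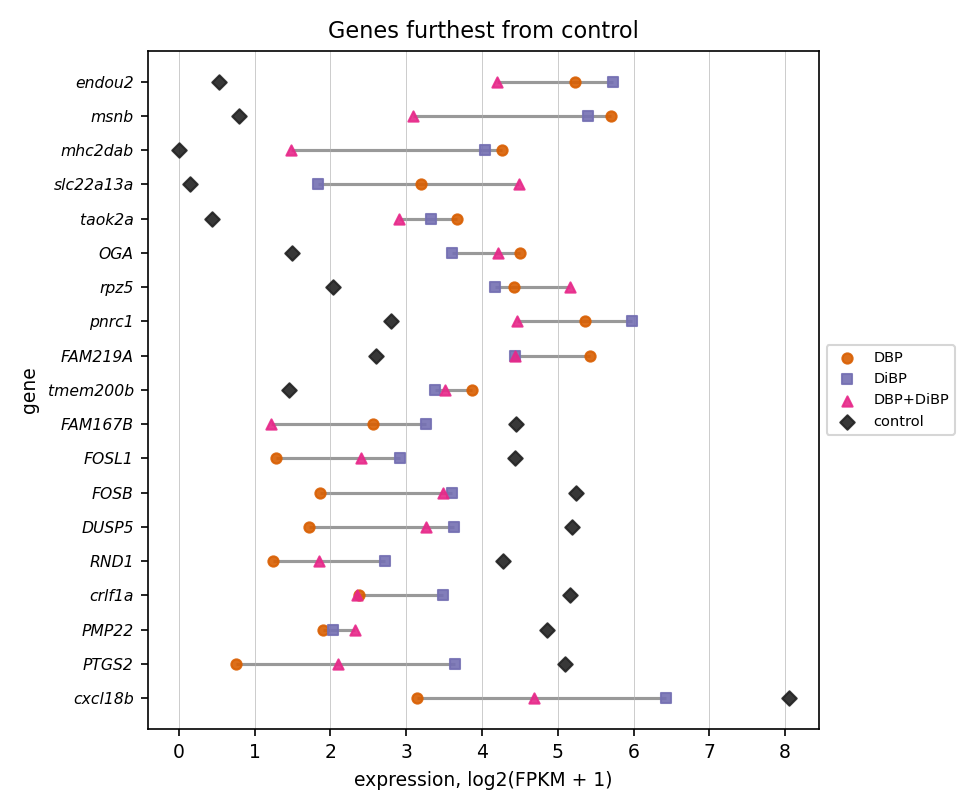
Expression of genes furthest above and below control, as log2(FPKM + 1) in each library. Coloured symbols are the 3 exposed libraries, joined by a grey bar over their range, and the black diamond is control, which lies outside every bar, to the left for the 10 genes from endou2 to tmem200b and to the right for those from FAM167B to cxcl18b.

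In some genes the 3 exposed libraries gave almost the same value. The kininogen gene kng1 had 21.9 FPKM with DBP, 21.5 with DiBP and 21.2 with both, against 7.34 in control (difference 1.43, range 0.04). ARHGEF18, a guanine nucleotide exchange factor gene, had 8.11, 7.56 and 7.99 FPKM against 1.55 in control (1.80, range 0.09). The MHC class II gene mhc2daa had 8.49, 10.1 and 8.94 FPKM against 1.37 in control (range 0.22), and unlike mhc2dab it was not lower in DBP+DiBP than in DBP. Others of this kind were gna15.1, for a G protein alpha subunit (13.0, 13.2 and 12.5 FPKM against 5.38), rgmd, of the repulsive guidance family (6.09, 6.29 and 6.91 against 1.58), and IST1, which acts in the ESCRT membrane scission machinery (23.4, 25.9 and 24.97 against 9.57). These 6 were picked for the largest difference relative to the range, so a margin many times the spread follows from that choice.

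On the lower side, pebp1, for an inhibitor of Raf kinase, had 6.94, 6.79 and 7.08 FPKM in DBP, DiBP and DBP+DiBP, against 15.2 in control (-1.03, range 0.05). The tubulin gene tubb6 had 7.998, 9.70 and 8.71 FPKM against 21.2 in control (-1.18, range 0.25). ggcta, a gene of glutathione turnover, had 4.28, 3.78 and 3.85 FPKM against 8.94 (range 0.14), just past the limit of 1, and the secreted protease gene ADAMTS1 had 4.16, 4.93 and 4.67 against 10.6 (-1.05, range 0.20). These 3 small differences rest on the 2-fold limit: with equal totals pebp1 stood at -0.96, ggcta at -0.94 and ADAMTS1 at -0.99 and none was called. Leaving out DiBP or DBP+DiBP also ended the call of ggcta (-0.97 and -0.98), and leaving out DBP that of ADAMTS1 (-0.99). With an offset of 5, ARHGEF18, gna15.1, rgmd and these 4 lower genes were not called. The lower genes were picked in the same way as the higher ones, so their margins also follow from that choice.

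**Figure D3:**
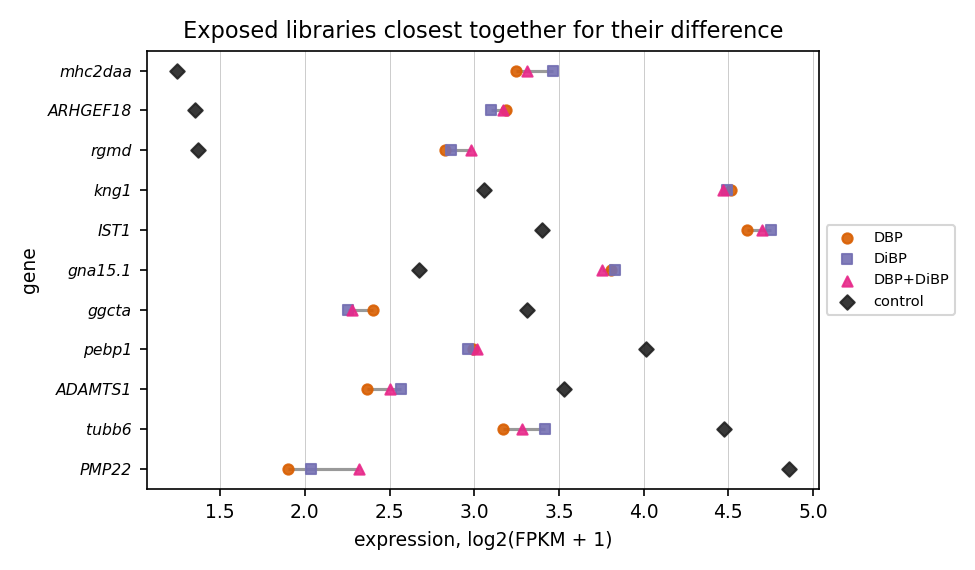
Genes called higher and called lower whose difference from control was largest relative to the range of the exposed libraries, as log2(FPKM + 1) per library. Coloured symbols for DBP, DiBP and DBP+DiBP nearly coincide, as for kng1 at 21.2 to 21.9 FPKM, and the black diamond of control lies apart.

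Immediate early genes split into a group below control in all exposed libraries and a group that was not. Of 49 matched, 31 passed the expression threshold; 5 were called lower (16.1%, beside the 0.998% over all genes) and 0 higher. Control lay above all 3 exposed libraries in 13 of the 31, or 41.9%, beside 23.9% of all genes. The 5 were the AP-1 subunit genes FOSB, FOSL1 and JUND and the phosphatase genes DUSP5 and DUSP2, whose products switch off MAP kinases. FOSB had 2.62 FPKM with DBP, 11.2 with DiBP and 10.2 with both, against 36.7 in control (-2.25, range 1.75). DUSP5 had 2.304, 11.4 and 8.57 FPKM against 35.6 in control (-2.32, range 1.91). FOSL1 had 1.44, 6.59 and 4.31 FPKM against 20.7 in control (-2.23, range 1.64). All 5 were lowest in DBP, with DiBP and DBP+DiBP between it and control.

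DUSP2 had 3.05, 9.65 and 7.87 FPKM in DBP, DiBP and DBP+DiBP against 28.8 in control (-2.04, range 1.39), and JUND had 1.72, 7.40 and 7.47 against 20.4 (-1.89, range 1.64). A further 8 of the 31 were below control in all exposed libraries without being called, among them ATF3, a stress-induced transcription factor gene (3.11, 9.25 and 6.83 FPKM against 15.8; -1.28, range 1.32). In another 17 control lay inside the exposed range: FOS had 25.6 FPKM in DBP but 178 in DiBP and 204 in DBP+DiBP, against 140.0 in control. Likewise JUN had 11.3, 93.02 and 209 FPKM against 77.9 in control, and egr1 had 4.09, 24.4 and 29.6 against 23.8. In these genes control lay inside the range of the exposed libraries, below DBP+DiBP and above DBP. The shear-stress factor gene klf2a was the only one of the 31 with control below all exposed libraries, at 24.01, 22.01 and 24.8 FPKM against 15.1. The median difference of the 31 was -0.67, beside -0.00 over all genes, and the medians were -2.03 with DBP, -0.34 with DiBP and 0.10 with both. Without DBP+DiBP, 11 of the 31 were called lower, beside 186 of 9521 genes, and the median was -1.12, beside 0.05. Without DBP the median was -0.05, the same as over all genes. The number called lower was 5 under both other scalings and both other offsets.

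**Figure D4:**
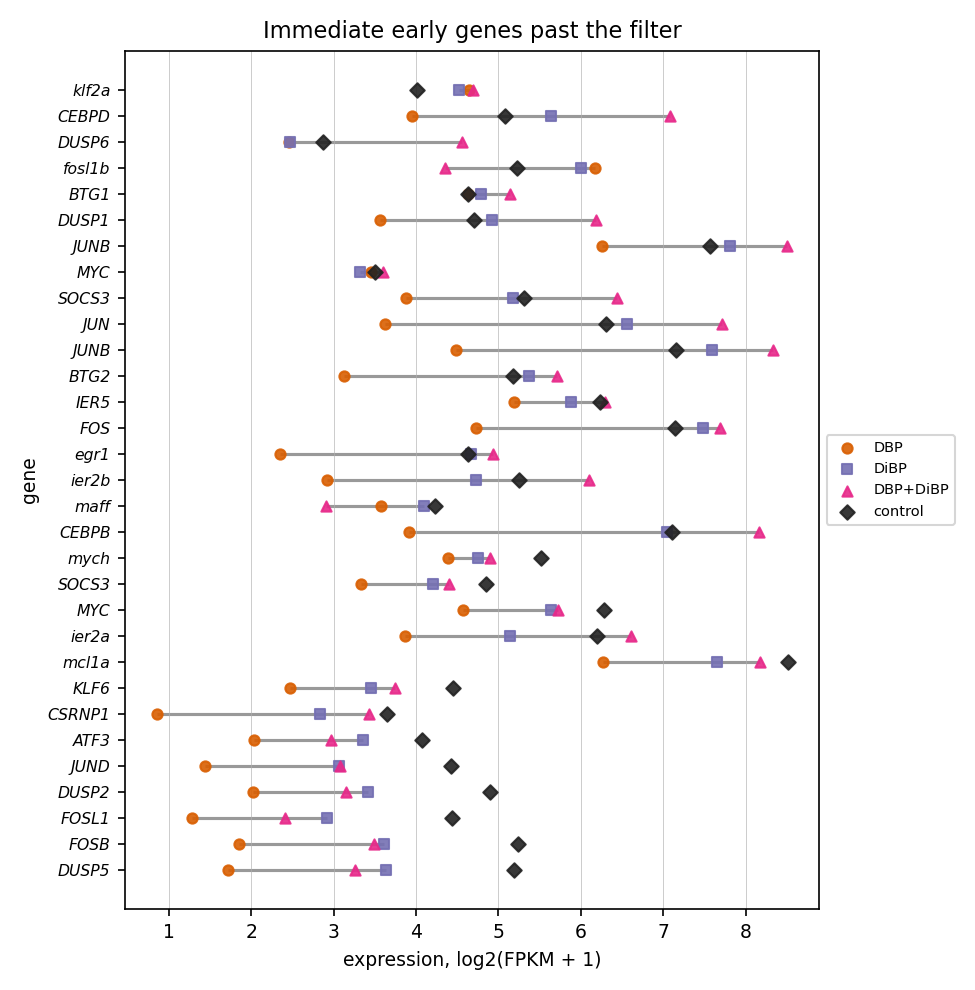
The 31 immediate early genes past the expression threshold, ordered by difference from control, as log2(FPKM + 1) per library. At the bottom, from DUSP5 to JUND, control lies to the right of all exposed libraries, while for FOS, JUN and egr1 it lies within their range; a symbol shown more than once (JUNB, MYC, SOCS3) stands for different Ensembl genes whose names lack a copy letter.

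Genes of protein folding stress had 2 members lower in all exposed libraries by the rule, and some that were far above control in DiBP alone. Of 40 past the threshold (52 matched) 2 were called lower (5%, beside 0.998% over all genes) and 0 higher, the median difference was -0.28, and control lay above all exposed libraries in 45% (beside 23.9%). The 2 were transcription factor genes of the unfolded protein response. atf4b had 59.96 FPKM with DBP, 81.8 with DiBP and 57.1 with both, against 153 in control (-1.21, range 0.51). XBP1 had 33.4, 50.9 and 19.9 FPKM against 85.5 in control (-1.37, range 1.31), a call that ended with equal totals (-1.30). The small heat shock gene HSPB1 was below control in all 3 (6.13, 34.98 and 14.4 FPKM against 74.6) but its range of 2.34 exceeded its difference of -2.26. BAG3, a co-chaperone gene, had 1.75, 12.4 and 3.49 FPKM against 10.5 in control, which lay inside the exposed range. The inducible heat shock gene hsp70l had 12.99 FPKM with DBP, 2342 with DiBP and 298 with both, against 161 in control, and its near copies hsp70.3 (4.61, 1511 and 144 FPKM against 165) and hsp70.1 (3.84, 656 and 90.7 against 77.9) had the same order among the exposed libraries, though reads of such copies may be split between them. The co-chaperone gene dnajb1b had 36.3, 142 and 19.5 FPKM against 32.7. In all of these control lay inside the exposed range, and the list's 52 matched genes summed to 2411, 8085 and 3168 FPKM, against 3485 in control. Without DiBP 6 of the 40 were called lower (beside 138 of all 9521 genes), without DBP+DiBP 4 (beside 186) and without DBP 3 (beside 144).

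Inflammation and chemokine genes held the 2 calls already described, cxcl18b and PTGS2, among 16 past the threshold of 42 matched, and 0 higher. The 2 are 12.5% of the list, beside 0.998% over all genes. Their median difference was -0.46, and control lay above all exposed libraries in 7 (43.8%, beside 23.9%). Without DiBP or without DBP+DiBP 4 of the 16 were called lower, beside 138 and 186 of all 9521 genes in those settings. Under both other scalings 0 of the 16 were called lower. The acute phase gene SAA2 had 1.52 FPKM in DBP and 1.33 in DiBP but 193 in DBP+DiBP, against 37.2 in control. The chemokine gene cxcl19 was near 0 in DBP and DiBP (0.361 and 0.688 FPKM) and in control (0.171), and stood at 27.5 FPKM in DBP+DiBP.

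Genes of apoptosis and DNA damage had control above all exposed libraries in 22 of 46 past the threshold (47.8%, beside 23.9% of all genes; 69 matched), though 0 were called in either direction and the median difference was -0.26. The survival gene mcl1a had 75.8 FPKM with DBP, 199 with DiBP and 286 with both, against 363 in control, with a range of 1.90 beyond its difference of -1.15. cdkn1a, whose product halts the cell cycle, had 4.74, 11.3 and 5.25 FPKM against 12.3 in control. GADD45B, a stress sensor gene, had 3.86, 8.90 and 13.6 FPKM in 1 copy against 19.5 in control. The base excision repair gene APEX1 was not shared: it had 30.7 FPKM in DBP, like the 30.5 in control, but 5.34 in DiBP and 2.78 in DBP+DiBP. With equal totals, control lay above all exposed libraries in 17 of the 46, and the share of all genes was not computed. Without DBP+DiBP 2 of the 46 were called lower, beside 186 of all 9521 genes.

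Hormone production had few values common to the 3 exposures. Of 20 genes of steroidogenesis and Leydig cells past the threshold (39 matched) 1 was called higher (5%, beside 1.21% over all genes) and 0 lower. The median difference was 0.02, and control lay inside the exposed range in 15, beside 5499 of all 9521 genes. Without DBP 0 were called higher and 2 lower, beside 145 and 144 of all 9521 genes. The median was then -0.15, beside -0.05 over all genes. Control lay above both remaining libraries in 9 without DBP (2 with all 3) and in 6 without DBP+DiBP. The share of all genes was not computed for these 2 settings. The called gene was HSD11B2, whose enzyme inactivates cortisol and takes part in making 11-ketotestosterone in fish: 16.3 FPKM with DBP, 16.97 with DiBP and 9.95 with both, against 6.18 in control (1.07, range 0.71). It was under the limit of 1 without DBP (0.97) and without DiBP (0.94), and with an offset of 5. The hormone gene insl3 had 2455, 1044 and 293 FPKM against 2072 in control, so that control lay between DBP and the other exposed libraries. The same held for STAR, the cholesterol carrier gene (159, 64.6 and 71.5 FPKM against 132), CYP17A1 (15.4, 9.74 and 4.03 against 13.1) and cyp11c1 (105, 37.3 and 46.4 against 53.3). The ferredoxin gene fdx1b, which feeds electrons to steroid hydroxylases, was below control in all 3 at 23.3, 12.3 and 7.65 FPKM against 33.6 (-1.30, range 1.49), and hsd3b1 above it in all 3 at 11.2, 5.63 and 7.69 against 4.81 (0.61, range 0.88); neither was called.

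Among hormone receptors and estrogen-responsive genes, 6 of 32 matched passed the threshold and 0 were called. The median difference was 0.17, and the highest was 1.77, in a gene not shown here. Control lay below all exposed libraries in 3 of the 6 (50%, beside 18.4% of all genes) and above all in 0 (beside 23.9%). The glucocorticoid receptor gene NR3C1 had 6.18, 5.75 and 5.76 FPKM in DBP, DiBP and DBP+DiBP, against 4.81 in control, a difference of 0.25. The glucocorticoid-responsive genes KLF9 (9.98, 12.03 and 9.304 FPKM against 8.96) and FKBP5 (2.42, 22.9 and 58.9 against 18.02) differed from each other in pattern. ESR1 and PPARA stayed under 1 FPKM in every library, and both ESR2 copies, FSHR, lhcgr and pparg were also under the threshold.

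Sertoli cell genes included 1 call, the keratin gene krt18a.1, with 65.6 FPKM with DBP, 101 with DiBP and 154 with both, against 409 in control (-2.02, range 1.21). Of 15 past the threshold (39 matched) this 1 was called lower (6.67%, beside 0.998% over all genes) and 0 higher, and the median difference was -0.28. The anti-Müllerian hormone gene amh was below control in all 3, at 52.6, 42.7 and 31.3 FPKM against 79.1. Its difference of -0.92 exceeded its range of 0.73 but missed the limit of 1. The gonadal growth factor gene gsdf was above control in all 3, at 94.95, 89.9 and 340 FPKM against 54.96, with a range of 1.91 that exceeded its difference of 1.36. DMRT1, the male pathway regulator, had 112, 106 and 54.4 FPKM against 105 in control, which lay inside the exposed range.

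Genes of the sperm flagellum held 4 called higher in the exposed libraries, and most were above control in DBP and DiBP but not in DBP+DiBP. Of 79 past the threshold (84 matched) 4 were called higher (5.06%, beside 1.21% over all genes) and 0 lower. Control lay below all exposed libraries in 18 (22.8%, beside 18.4% of all genes, a similar share) and above all of them in 0 (beside 23.9%). dnaaf2, needed to assemble axonemal dynein arms, had 80.3 FPKM with DBP, 65.7 with DiBP and 42.02 with both, against 20.5 in control (1.52, range 0.92). dnah9, an outer arm dynein heavy chain gene, had 21.4, 21.4 and 14.7 FPKM against 6.83 in control (1.35, range 0.52). In both genes DBP+DiBP was the exposed library nearest to control.

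The other calls of the flagellum list were DNAI1, an outer arm intermediate chain gene (31.7, 40.6 and 22.9 FPKM in DBP, DiBP and DBP+DiBP against 13.9; 1.09, range 0.80), and DNAH1, an inner arm heavy chain gene (11.5, 9.17 and 5.93 against 3.73; 1.02, range 0.85). A second Ensembl gene carries the symbol DNAI1 and was not called. Without DiBP neither call was kept (0.90 and 0.98) and the list's count was 2, beside 167 of all 9521 genes. Without DBP the call of DNAH1 was lost (0.83), and with an offset of 5 both calls were lost. The list's median was 0.55 with DBP, 0.49 with DiBP and -0.24 with both, and 0.23 for the mean of the 3. Over all genes the medians were 0.04, 0.05 and -0.20 in that order, so the list's value in DBP+DiBP was near that of all genes. Without DBP+DiBP, control lay below both remaining libraries in 70 of the 79, and the median was 0.51, beside 0.05 over all genes. The share of all genes with control below both was not computed.

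Earlier germ cell genes had no call. Of 17 genes of spermatogonia and germ plasm past the threshold (26 matched), control lay above all exposed libraries in 5 (29.4%, near the 23.9% of all genes). It lay below all in 0 (beside 18.4%), and the median difference was -0.27. Control lay above in 11 without DBP, where 1 was called lower (beside 144 of 9521 genes), and in 9 with scaling by the median of ratios. With equal totals it lay above in 3, and without DBP+DiBP below in 5 with a median of -0.10. The share of all genes with control on these sides was not computed for these settings. The RNA helicase gene DDX4 (vasa) had 251 FPKM with DBP, 262 with DiBP and 167 with both, against 352 in control (-0.66, range 0.64), and the piRNA factor gene PIWIL1 had 154, 114 and 64.4 against 183 (-0.80, range 1.24). DAZL and DMC1, the meiotic recombinase gene, had control inside the exposed range: DAZL 199, 177 and 77.6 FPKM against 184, and DMC1 143, 103 and 29.4 against 125. Of 36 meiosis genes past the threshold (39 matched) control lay inside the range in 31, beside 5499 of all 9521 genes, and the median difference was -0.10. Without DBP+DiBP that median was 0.22, beside 0.05 over all genes. Control then lay below both remaining libraries in 23 of the 36, and the share of all genes was not computed. The cohesin gene stag3 was above control in all 3 (41.3, 53.97 and 15.03 FPKM against 13.3), with a range of 1.78 beyond its difference of 1.23.

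Transcripts of the mitochondrial genome and of cytosolic ribosomal proteins were never higher in all 3 exposed libraries. Of the 13 mitochondrially encoded genes 4 were called lower (30.8%, beside 0.998% over all genes), with a median difference of -0.66, and control lay above all exposed libraries in 7 (53.8%, beside 23.9%). Of the 4 called rows, MT-ATP6, mt-atp8 and MT-CO3 hold identical values and count as 1 measurement. MT-CO2, a cytochrome oxidase subunit gene, had 5926 FPKM with DBP, 4665 with DiBP and 6761 with both, against 11610.4 in control (-1.02, range 0.54). With equal totals, where MT-CO2 stood at -0.95, 0 of the 13 were called, as also without DiBP (MT-CO2 -0.88). Without DBP 2 were called lower, beside 144 of all 9521 genes. Without DBP+DiBP control lay above both remaining libraries in all 13, a setting for which the share of all genes was not computed. Of the complex I genes, MT-ND3 was below control in all 3 (1102, 527 and 793 FPKM against 1587), with a range of 1.06 beyond its difference of -1.04. In the other 6 control lay inside the exposed range, as in MT-ND1 (979, 544 and 1452 FPKM against 1446).

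Of 81 ribosomal protein genes past the threshold (84 matched) 0 were called, control lay above all exposed libraries in 36 (44.4%, beside 23.9% of all genes) and below all in 0 (beside 18.4%), and the median difference was -0.36. RPS12 had 1505 FPKM with DBP, 1213 with DiBP and 2017 with both, against 2746 in control (-0.83, range 0.73), and RPL38 had 768, 545 and 646 against 1083 (-0.74, range 0.50). Without DBP+DiBP, control lay above both remaining libraries in 80 of the 81, and 3 were called lower, beside 186 of 9521 genes. The share of all genes with control above both was not computed.

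**Figure D5:**
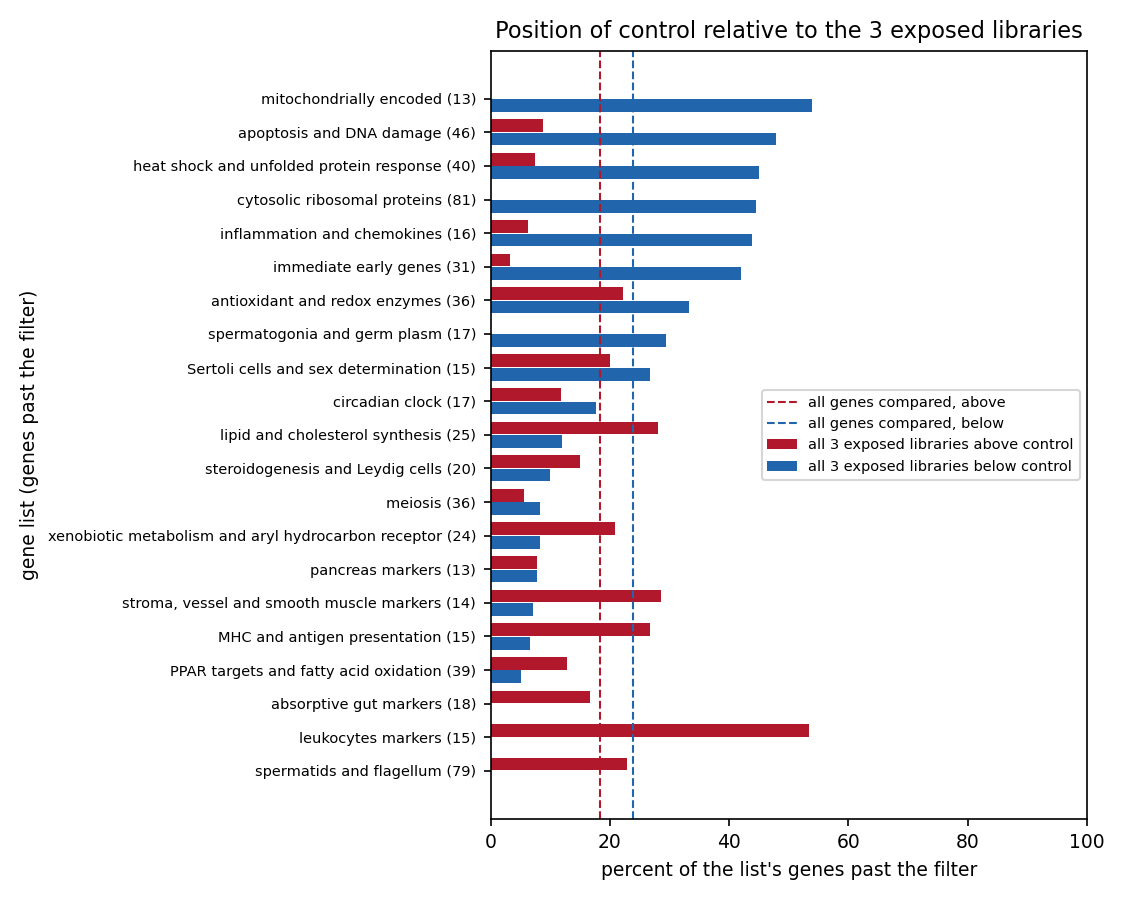
For each gene list with at least 10 members past the expression threshold (number in brackets), the percentage with all 3 exposed libraries above control (red) and below control (blue). Dashed lines give the same for all 9521 genes, 18.4% above and 23.9% below. The bars below control reach 53.8% for mitochondrially encoded genes, where MT-ATP6, mt-atp8 and MT-CO3 hold identical values. The flagellum, leukocyte and gut lists have none.

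Lists of metabolism held genes that were high in DBP+DiBP alone, the library with gut markers. The threshold on the mean admits such genes: without DBP+DiBP, 7 of 24 xenobiotic, 9 of 39 PPAR and 2 of 25 lipid synthesis genes would average under 5 FPKM, so the medians of these lists are descriptions that the threshold favours toward that library. Of 24 xenobiotic genes past the threshold (61 matched) 0 were called higher and 1 lower: gstt1a, a glutathione transferase gene, with 10.96 FPKM with DBP, 10.2 with DiBP and 6.82 with both, against 27.9 in control (-1.51, range 0.61). The list's median of 0.46 was -0.18 without DBP+DiBP. The cytochrome P450 gene cyp3a65, also a gut marker, had 0.284, 0.0806 and 49.6 FPKM against 0.509 in control. Of 39 PPAR and fatty acid oxidation genes past the threshold (66 matched) 0 were called, and the median of 0.41 was -0.09 without DBP+DiBP. In that setting 1 was called higher and 3 lower, beside 275 and 186 of all 9521 genes. The gene LPL, for lipoprotein lipase, ran the other way, with 16.7 and 16.1 FPKM in DBP and DiBP, and 2.38 in DBP+DiBP, against 3.26 in control. Of 25 genes of lipid and cholesterol synthesis past the threshold (65 matched) 0 were called, with a median of 0.14. Without DBP+DiBP the median was -0.02 and 4 were called lower, beside 186 of all 9521 genes. Antioxidant genes had 0 calls among 36 (50 matched; median -0.07), and circadian clock genes 0 among 17 (42 matched; median -0.07).

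Genes of antigen presentation and markers of other cell types were mostly not shared. Of 15 antigen presentation genes past the threshold (28 matched) 2 were called higher (13.3%, beside 1.21% over all genes), mhc2dab and mhc2daa, described above. The gene mhc1uba had 117 FPKM in DBP+DiBP and 0.0768 in DiBP, was listed at 0 in DBP, and had 0.0373 in control. Of 15 leukocyte markers past the threshold (34 matched) 0 were called, and control lay below all exposed libraries in 8 (53.3%, beside 18.4% of all genes): the macrophage receptor gene marco had 4.75 FPKM with DBP, 4.46 with DiBP and 27.7 with both, against 1.77 in control. The list's median of 0.85 was 0.20 without DBP+DiBP, where control lay above both remaining libraries in 6 and below both in 8. The share of all genes was not computed for that setting. Without DBP+DiBP 10 of the 15 would average under 5 FPKM. The summed leukocyte markers were at 283, 303 and 958 FPKM in that order, against 239 in control. Of 18 gut markers past the threshold 0 were called, since FABP2 and others were high in DBP+DiBP alone (0.326, 0.212 and 194 FPKM, against 0.467 in control).

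Among 7 liver markers past the threshold (36 matched) only kng1 was called, and tfa, the transferrin gene, had 2.08, 0.409 and 54.2 FPKM against 16.8 in control. Among 14 stromal, vessel and smooth muscle markers (38 matched) only the collagen gene COL1A1 was called, at 101, 93.7 and 88.1 FPKM in DBP, DiBP and DBP+DiBP, against 42.2 in control (1.14, range 0.19). Control lay below all exposed libraries in 4 of the 14 (28.6%, beside 18.4% of all genes) and above all in 1 (7.14%, beside 23.9%). That 1 was MYL9, at 1.90, 5.80 and 15.4 FPKM against 31.5, not called because its range of 2.50 exceeded its difference of -2.25. None of 13 pancreas markers (26 matched) and none of 7 skeletal muscle markers (38 matched) was called. Of 4 blood markers past the threshold (9 matched) 1 was, the hemoglobin gene hbaa2, whose values are identical to those of another row. In all, 3 of the 115 genes called higher and 0 of the 95 called lower belonged to these marker lists, and the share of all genes that belong to them was not computed. The part of other cell types in the remaining calls was not tested.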

How the data were processed

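RNA of 4 zebrafish testis libraries was analysed from 1 deposited table each, with 49610 rows (35066 Ensembl genes and 14544 assembled loci). The authors' values are taken as FPKM from their range and spacing, since no header names the unit; the tools HISAT2 and HTSeq 0.6.1 and the build GRCz10 appear in the submitters' processing notes, and which step made the deposited FPKM is not given in the sources used here. Per the labels' protocols, libraries were made with an NEBNext Ultra kit. Symbols come from a table of gene names (26996 Ensembl genes matched; 8753 of the 9521 compared). Capital symbols lack the copy letter of duplicated genes. Values of 1256 of the 9521 rows are identical to those of another row.

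Values were used as deposited, as log2(FPKM + 1), for rows with a mean of at least 5. The fit across rows used limma 3.58.1 in R 4.3.3 (trend, Benjamini-Hochberg). The rule and the fit were run on simulated data in which all libraries had the same noise. That run checks the code and does not show how either performs on these libraries. Named genes were the 10 furthest on each side, the 6 on each side with the largest difference relative to the range, a preset group of genes for hormones and testis cells, and at most 4 from each of 25 lists, without provisional symbols or shared values; JUND, FOS, JUN, egr1, klf2a, ATF3, hsp70l, hsp70.3, hsp70.1, dnajb1b, MT-ND3, MT-ATP6, MT-CO3, mt-atp8 and hbaa2 fall outside this rule and are list members shown after their values were seen. Members of lists were matched by symbol or, failing that, by the symbol without its copy letter. The comparison, lists and rules were chosen with earlier results of these data known. Read numbers are unknown, so no counting interval is given. No sequence table was used here. Some genes that the rule names are not reported here.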

Additional observations from a re-analysis of the deposited data

How the results depend on the processing

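No paired analysis was possible because each group is 1 library. With an offset of 5, 42 genes were called higher. With a mean of at least 1, 207 were higher and 208 lower, and with no threshold 209 and 240. With assembled loci added, 194 were higher. When each exposed library had to be past 2-fold, 60 were higher and 51 lower. A difference of 1 with no condition on the range gave 372 and 167, and control outside the exposed range at any size gave 1750 and 2272. Leaving out 1 exposed library gave 145 to 275 higher and 138 to 186 lower by the rule. Of the calls, 107 of 115 higher and 87 of 95 lower were kept without DBP+DiBP, and 93 and 78 without DBP. No called named gene changed sign in any of these settings, and the limma count was 0 under both other offsets, both other scalings, all filters and both row sets. Leaving out a library narrows or keeps the range and so loosens the rule. Counts by list under other settings were chosen after seeing the data. The cause of these changes was not tested. With 1 control library, no setting separates exposure from that library.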

Other observations

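Some genes called on the mean of the 3 exposed libraries belong to no list above, and they were chosen here after their values were seen. CYP26A1, which degrades retinoic acid, had 24.3 FPKM with DBP, 26.2 with DiBP and 42.7 with both, against 6.17 in control (difference 2.12, range 0.79). RDH10, which makes retinaldehyde, the precursor of retinoic acid, had 8.701, 24.2 and 10.6 FPKM against 39.5 in control (-1.52, range 1.37). Genes of retinoic acid metabolism were not examined as a list. The ciliary transcription factor gene rfx3 had 107, 143 and 76.4 FPKM against 43.8 in control (1.25, range 0.90). The histone gene h2ax1 had 1019, 768 and 833 FPKM against 2099 in control (-1.27, range 0.41).

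Of genes called lower, 3 others were chosen in the same way. The connective tissue growth factor gene CCN2 had 31.2, 61.6 and 40.9 FPKM in DBP, DiBP and DBP+DiBP, against 113 in control (-1.38, range 0.96). The heparan sulfate proteoglycan gene sdc4 had 28.9, 69.8 and 57.8 FPKM against 167 (-1.75, range 1.24), and the sphingosine phosphate receptor gene S1PR1 had 5.16, 10.7 and 6.23 against 24.98 (-1.69, range 0.92). All 3 were lowest in DBP and highest in DiBP among the exposed libraries, the order also seen in DUSP5, FOSB and PTGS2.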
